A study of Mus musculus with 6 samples.

Results

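AP-1 is a dimeric transcription factor built from basic leucine zipper (bZIP) proteins of the Fos and Jun families, and its genes were followed here in hematopoietic stem cells (HSCs), which renew themselves in the bone marrow and give rise to every blood lineage. The 8 genes described are Fos, Fosb, Fosl2, Jun, Junb, Jund, Atf3 and Maff, taken by gene name from the 27198 genes of the deposited expression table. All 8 names matched 1 row each. HSCs were sorted from the bone marrow of male wild-type C57BL/6 mice 8 to 10 weeks old as Sca1+ c-Kit+ cells that lacked lineage markers, CD34 and CD135. The l-FA group, whose labels read l-ferulic acid, had received daily intraperitoneal ferulic acid (FA), a plant phenolic acid, at 50 mg/kg for 30 days, and the Ctrl group had been given solvent. Neither group was irradiated or carried an engineered allele. Each group holds 3 libraries, numbered 1 to 3, and the comparison asks how long-term FA changed the transcriptome of unstressed HSCs. The number of mice and of cells behind a library is not given in the sources used here, so n below counts libraries. Each p-value sets the difference between the groups against the spread between these libraries, which may be technical.

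Fos proteins pair poorly with each other and bind DNA mainly with a Jun partner. Jun proteins can also form Jun dimers, so the supply of both families shapes which dimers a cell can hold. Fos, Jun, Junb and Fosb are immediate early genes: growth factors, stress and tissue dissociation raise their transcripts within minutes through MAP kinases, and the transcripts are short-lived. JunD is the more steadily expressed Jun protein and is known as a restraint on proliferation in several cell types, ATF3 is a stress-induced bZIP factor that can pair with Jun, and MafF is a small Maf protein without a transactivation domain of its own. JunB is known to limit HSC proliferation and myeloid expansion.

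Promoter sequences of the 3 most abundant members are shown because those genes all had higher mean values in l-FA, and they let the motifs marked in them be read in place. Elements farther from the start lie outside the stretch shown. Each runs 5' to 3' on the gene's strand from 150 bases before the RefSeq transcription start to 20 bases from it on GRCm38.p6, and capitals mark the motifs described after the sequences. The Fos sequence is chr12:85473740-85473909 on the plus strand, the Jun sequence is chr4:95052203-95052372 on the minus strand, and the Junb sequence is chr8:84978729-84978898 on the minus strand.
Fos: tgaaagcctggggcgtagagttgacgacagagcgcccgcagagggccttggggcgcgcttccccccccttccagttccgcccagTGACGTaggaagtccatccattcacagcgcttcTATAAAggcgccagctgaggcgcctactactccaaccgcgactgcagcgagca
Jun: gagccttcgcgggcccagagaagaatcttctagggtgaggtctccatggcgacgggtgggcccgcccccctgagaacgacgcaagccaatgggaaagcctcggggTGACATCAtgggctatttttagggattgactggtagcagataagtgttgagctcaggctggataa
Junb: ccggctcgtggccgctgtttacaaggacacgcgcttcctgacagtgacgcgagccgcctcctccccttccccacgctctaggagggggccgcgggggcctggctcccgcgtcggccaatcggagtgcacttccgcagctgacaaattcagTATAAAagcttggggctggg
The capitals in Fos are TGACGT, the core of a cyclic AMP response element, beginning 66 bases before the start, and TATAAA, beginning 33 bases before it. In Jun the capitals are TGACATCA, an AP-1-like element, beginning 45 bases before the start. In Junb they are TATAAA at the RefSeq start itself, which lies 30 bases upstream of the start that GENCODE M21 gives. RefSeq windows of 300 bases, from 250 before to 50 after a start, were found for all 8 members (10 windows, 3 of them for Maff) and were searched on both strands for 5 motifs. TGACTCA, the AP-1 consensus, was in none of the 10 windows and in 5.20% of all 32851 windows. TGACGTCA, the full cyclic AMP response element, was in 1 Maff window and in 1.79% of all windows. TGACATCA was in the Jun window and 1 Maff window and in 3.62% of all. TGACGT, which every TGACGTCA also contains, was in windows of Fos, Atf3 and Maff and in 7.51% of all, and TATAAA was in those of Fos and Junb and in 13.6% of all. The windows of Fosb, Fosl2 and Jund held none of these letters. Not every RefSeq start is the GENCODE M21 start of the gene, so a window can lie away from the GENCODE promoter. The Jund window starts from a site 1210 bases upstream of it, and those of Fosl2 (671 bases), Atf3 (34706 bases) and 2 of Maff (899 and 1781 bases) from sites downstream of it. A match or its absence describes these letters only.

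Libraries held 19287735 to 20380610 counts in Ctrl and 19505689 to 20376031 in l-FA. Per gene, 2 libraries of a group differed by a median chi-square of 0.890 to 1.09 (0.455 from counting error alone), and a Ctrl and an l-FA library by 8.20 to 8.83. Of the 15 HSC markers listed, all were tested and none was at 0 in any library, 9 were higher and 1 was lower in l-FA at an adjusted p under 0.05 (25.5% and 25.0% of all genes tested), and their summed level was 2053 to 2188 CPM (counts scaled to the library size) in Ctrl and 2382 to 2410 in l-FA. Kit, named for its size, held the largest part of this sum, at 1067 CPM in Ctrl and 1157 in l-FA. Slamf1, which encodes the HSC surface marker CD150, was past 2-fold (log2 fold change 1.90, SE 0.19, edgeR adjusted p = 0.000338). It had 32 to 51 counts per library in Ctrl and 152 to 179 in l-FA. The 1 lower, named for its direction, was Hlf, itself a bZIP gene (log2 fold change -0.31, SE 0.047, edgeR adjusted p = 0.00195). Of 7 megakaryocyte markers 4 were higher and none lower, from a summed 209.7 to 219.6 CPM to 299 to 305, and of 6 mast cell and basophil markers 4 were higher and none lower, from 153 to 159.8 CPM to 216 to 224. The neutrophil and monocyte markers behaved differently: 10 of 13 tested were lower and 3 higher, and their summed level was 23588 to 24506 CPM in Ctrl and 6255 to 6555 in l-FA. Mpo (log2 fold change -1.91, standard error (SE) 0.030, edgeR adjusted p = 6.54e-07) and Elane (-2.82, SE 0.017, edgeR adjusted p = 5.65e-09), which encode granule proteins of granulocyte-committed cells, carried most of this sum, and Ltf (-3.16) and Ms4a3 (-2.72) were also past 2-fold. Ly6g, named for its zeros, was at 0 in all 3 l-FA libraries and at 3, 6 and 8 counts in Ctrl. The 3 higher, named for their direction, were Itgam (log2 fold change 0.50), Lyz2 (0.30) and Csf1r (0.10). These sums moved with the group, as did many of the values below, and their part in those values was not tested. In bulk RNA, fewer cells of a type and less RNA per cell cannot be told apart.

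Of the 8 genes, 7 passed edgeR's filter on low counts and were tested. At a Benjamini-Hochberg adjusted p under 0.05 over all 16520 genes tested, which 50.5% of them passed, 4 members were higher in l-FA than in Ctrl (Fos, Fosb, Fosl2 and Junb), where 25.5% of all genes were higher. A single member, Jund, was lower, where 25.0% of all genes were lower. Jund alone also passed a 2-fold limit, which 5.10% of all genes passed downwards and 6.68% upwards. Jun and Atf3 did not pass the test and Maff could not be tested. The median log2 fold change of the 7 was 0.55, and that of all genes tested was 0.0035. The l-FA and Ctrl values did not overlap for 6 of the 8 genes, with l-FA higher for 5 of them. Among all genes tested 60.3% did not overlap, 30.4% with l-FA higher and 29.9% with l-FA lower. Levels in single libraries are given below in CPM after TMM scaling, which are fit for comparing 1 gene between libraries but not different genes.

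Fos (ENSMUSG00000021250), listed on chromosome 12 from 85520664 to 85524047, encodes the founding Fos protein. It was at 502, 512 and 485 CPM in Ctrl libraries 1, 2 and 3 and at 894, 899.8 and 888 CPM in l-FA libraries 1, 2 and 3. The groups stood far apart and each was tight, at 499.5 ± 13.5 CPM in Ctrl and 894 ± 5.80 CPM in l-FA (SD, n = 3). The 1.79-fold higher level corresponded to a log2 fold change of 0.84 (SE 0.024, 95% confidence interval 0.78 to 0.90, edgeR quasi-likelihood test, adjusted p = 3.95e-06). It passed in all 14 alternative fits, between 0.81 and 0.86.

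Fosl2 (ENSMUSG00000029135; chromosome 5, 32293145 to 32315186) encodes Fra-2, a Fos family protein without the strong transactivation domain of c-Fos. Its level was 5.05, 5.31 and 5.52 CPM in Ctrl and 8.29, 7.53 and 7.46 CPM in l-FA. All l-FA libraries lay above all Ctrl libraries, 1.47-fold on average (log2 fold change 0.55, SE 0.093, 95% confidence interval 0.33 to 0.77, edgeR adjusted p = 0.00295), and the difference passed in all 14 alternative fits.

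Fosb (ENSMUSG00000003545; chromosome 7, 19036621 to 19043976), whose product resembles c-Fos, was at 4.01, 3.86 and 4.12 CPM in Ctrl and at 5.48, 4.74 and 4.76 CPM in l-FA. These values rest on 72 to 82 counts per Ctrl library and 95 to 115 per l-FA library. The groups did not overlap, but the difference was small at 1.25-fold and close to the threshold (log2 fold change 0.32, SE 0.11, 95% confidence interval 0.06 to 0.58, edgeR adjusted p = 0.0472). It passed in 3 of 14 alternative fits, and leaving out any 1 of the 6 libraries gave an adjusted p between 0.0655 and 0.121.

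Fosl1, the remaining Fos family gene, was not among the 8 genes and did not reach the filter. It had 0, 6 and 0 counts in Ctrl and 10, 5 and 9 counts in l-FA, where a count of 0 allows up to 3 counts.

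**Figure D1:**
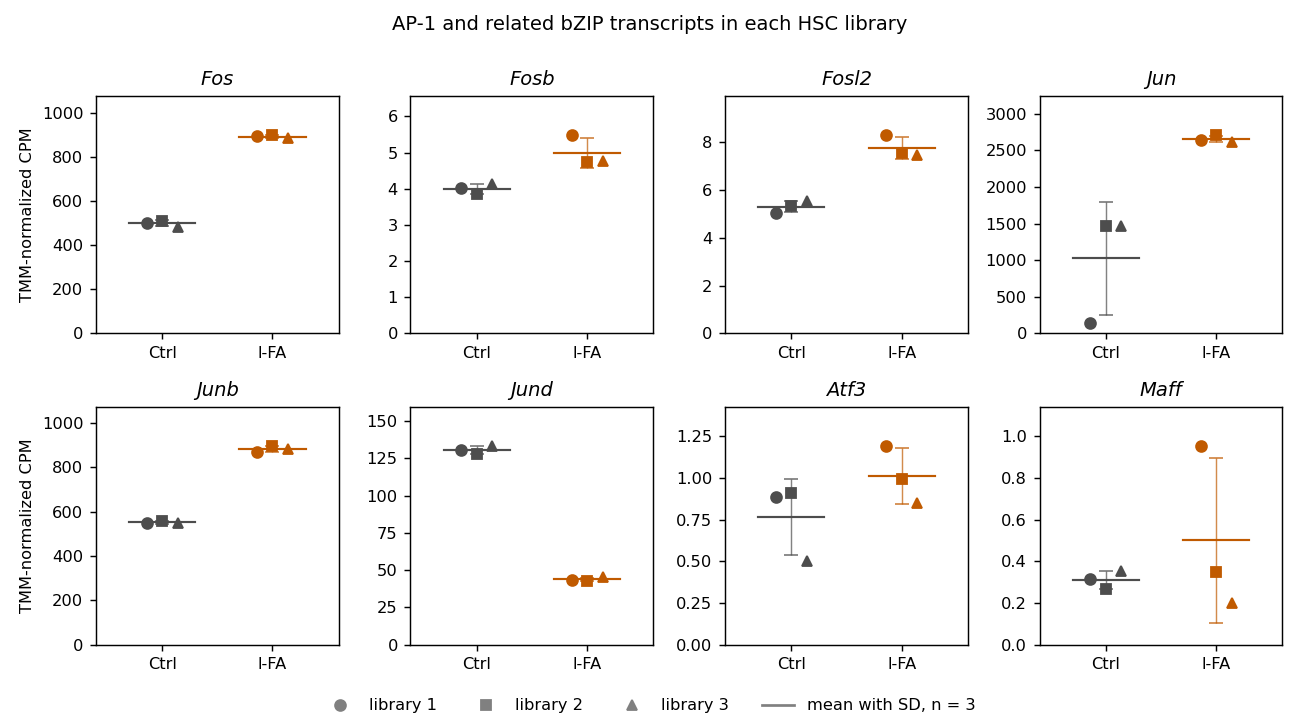
TMM-normalized CPM of each of the 8 genes (vertical axes from 0, each panel on its own scale) in the 3 Ctrl and 3 l-FA libraries, with horizontal lines at the group mean and bars of 1 SD. Fos, Fosb, Fosl2 and Junb lay higher in every l-FA library and Jund lower, Jun in Ctrl library 1 was at 135 CPM against 1466 and 1469 in the other two, and the groups overlapped for Atf3 and Maff.

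Jun (ENSMUSG00000052684; chromosome 4, 94937271 to 94940459) encodes c-Jun, the main Jun partner of Fos proteins in many stimulated cells. Ctrl library 1 was at 135 CPM, Ctrl libraries 2 and 3 were at 1466 and 1469 CPM, and the l-FA libraries were at 2646, 2707 and 2615 CPM. These rest on 2582, 27356 and 29257 counts in Ctrl and 55570, 54290 and 52224 counts in l-FA. Ctrl libraries 2 and 3 thus lay close together and Ctrl library 1 stood 10.9-fold below their mean, while every l-FA library still lay above every Ctrl library. With all 6 libraries the log2 fold change was 1.38 with an SE of 0.75 (95% confidence interval -0.43 to 3.19), and it did not pass (edgeR adjusted p = 0.176). Without Ctrl library 1 it was 0.85 with an SE of 0.021 (0.80 to 0.91, edgeR adjusted p = 4.18e-05), a 1.81-fold higher level in l-FA than in Ctrl libraries 2 and 3. That library was set apart by its value of Jun itself, and only 2 Ctrl libraries remain. The SE and p-value of this fit are therefore no independent support for a difference. In that fit 44.7% of all 16923 genes tested passed, 22.6% higher and 22.1% lower, and 7.05% and 5.16% also passed the 2-fold limit; Jun did not pass that limit. No other of the 14 alternative fits called Jun, and in those the adjusted p reached 0.3.

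The low value of Jun in Ctrl library 1 had no counterpart in its closest relatives. The distance on the log2 scale from the library standing apart to the nearer of the other two in its group was 3.44 for Jun in Ctrl, and 0.05, 0.02 and 0.03 for Fos, Junb and Jund. In l-FA it was 0.03 for Jun. Among 11428 genes with a mean of at least 100 counts, 197 (1.72%) had such a distance of 1 or more in Ctrl, in 37 of them because Ctrl library 1 was low, and 224 (1.96%) had one in l-FA. Jun ranked 8 among the 11428 in Ctrl, and 2 among the 5166 genes of the highest mean counts, those from 1000 upwards. The total count of Ctrl library 1, 19762196, lay between those of the other two Ctrl libraries.

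The genes with the pattern most like that of Jun shared the drop in Ctrl library 1, which follows from choosing them by nearness to Jun. Likeness was the root mean square difference of log2(CPM + 1), centred on each gene's mean, over the 6 libraries. The nearest, 4632427E13Rik, differed from Jun by 0.204 and had 8, 204 and 215 counts in Ctrl and 417, 366 and 327 in l-FA. Gm50388 followed at 0.505 with 77, 756 and 1100 counts in Ctrl and 1250, 720 and 1155 in l-FA, so its groups overlapped. Then came Zfp429 at 0.537 with 13, 134 and 126 counts in Ctrl and 224, 211 and 210 in l-FA, and Phtf1os was at 0.744. The list is a description of 6 libraries in which 1 library weighs heavily.

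Junb (ENSMUSG00000052837; chromosome 8, 85701113 to 85705347) was at 549.5, 557 and 548 CPM in Ctrl and at 871, 895 and 884 CPM in l-FA. The groups stood apart and each was tight, at 551 ± 4.73 CPM in Ctrl and 883 ± 11.7 CPM in l-FA (SD, n = 3). The level was 1.60-fold higher in l-FA (log2 fold change 0.68, SE 0.018, 95% confidence interval 0.64 to 0.72, edgeR adjusted p = 3.74e-06), between 0.67 and 0.70 in 14 alternative fits that all passed.

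Jund (ENSMUSG00000071076; chromosome 8, 71151599 to 71153265) went the other way. It was at 130.5, 128 and 133 CPM in Ctrl and at 43.4, 42.6 and 45.1 CPM in l-FA, from 2386 to 2651 counts in Ctrl and 854 to 912 in l-FA. Every l-FA library lay below every Ctrl library, and the mean was 2.99-fold lower, at 43.7 ± 1.29 CPM against 130.5 ± 2.59 CPM in Ctrl (SD, n = 3). The log2 fold change was -1.58 (SE 0.037, 95% confidence interval -1.67 to -1.49, edgeR adjusted p = 2.12e-06) and stayed between -1.59 and -1.55 in 14 alternative fits that all passed.

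Atf3 (ENSMUSG00000026628; chromosome 1, 190902493 to 190950236) was scarce, with 17, 17 and 10 counts in Ctrl and 25, 20 and 17 in l-FA. The corresponding levels of 0.886, 0.911 and 0.502 CPM and 1.19, 0.997 and 0.851 CPM overlapped. Its log2 fold change of 0.41 (SE 0.28, 95% confidence interval -0.27 to 1.08, edgeR adjusted p = 0.273) did not pass in any fit, and the interval includes a 2-fold higher level.

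Maff (ENSMUSG00000042622; chromosome 15, 79230821 to 79243276) was scarcer still, with 6, 5 and 7 counts in Ctrl and 20, 7 and 4 counts in l-FA. Only l-FA library 1 stood out, and the other two overlapped the Ctrl libraries. With no filter the log2 fold change was 0.68 (SE 0.60, 95% confidence interval -0.77 to 2.14, edgeR adjusted p = 0.418), so no difference was detectable at this depth.

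**Figure D2:**
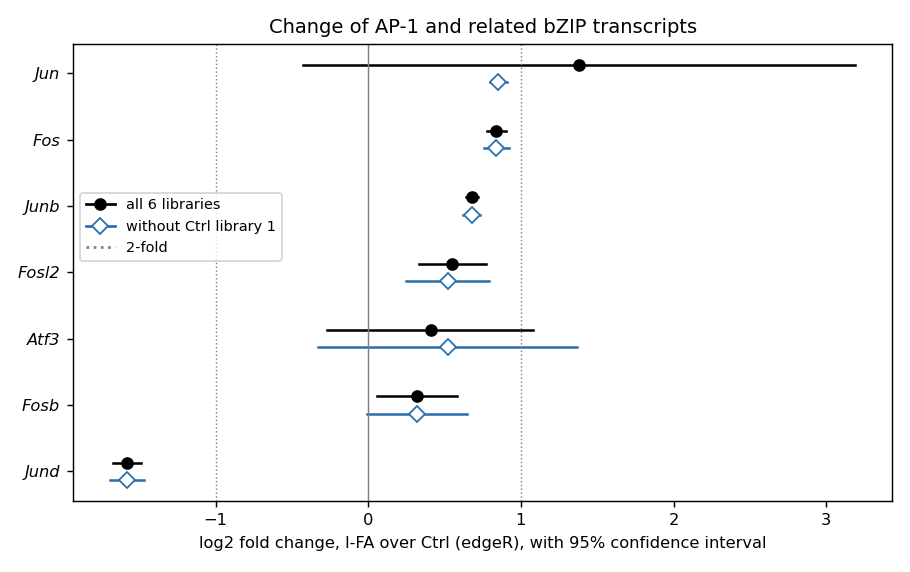
Log2 fold change of l-FA over Ctrl (horizontal axis) with its 95% confidence interval from edgeR for the 7 genes tested, with all 6 libraries (filled circles) and without Ctrl library 1 (open diamonds); dotted lines mark a 2-fold change. That library was set apart by its value of Jun, and only Ctrl libraries 2 and 3 remain without it. Removing it narrowed the interval of Jun from -0.43 to 3.19 down to 0.80 to 0.91, moved the lower end for Fosb to -0.01, and left Fos, Junb and Jund at 0.84, 0.68 and -1.58.

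The listed intervals of Jun, Junb, Jund and Maff each overlap that of another gene. The sources used here do not say if counts were assigned by strand, so reads in a shared stretch could belong to either gene. Junos, a long noncoding RNA gene sharing 689 bases with Jun, had only 8 to 28 counts in any library. It had 16 counts in Ctrl library 1, beside 18 and 15 in the other two, and did not follow Jun there. Prdx2, which encodes a peroxiredoxin, shares 351 bases with Junb and had 3985, 3906 and 4105 counts in Ctrl and 4529, 4486 and 4577 in l-FA (log2 fold change 0.10, SE 0.029, edgeR adjusted p = 0.0263). Gm11175, within Jund, had 3 to 10 counts and was not tested. Gm56727, within Maff, had 112 to 138 counts, more than Maff itself, with a log2 fold change of 0.14 (SE 0.093, edgeR adjusted p = 0.278).

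Levels of different genes were compared per length, in FPKM, the unit the authors deposited, which divides a count by gene length in kilobases and by the library total. In l-FA the order was Jun at 855, 869 and 839.6 FPKM, Junb at 390.3, 398 and 393, Fos at 243, 243 and 239.8, and Jund at 26.8, 26.2 and 27.7. In Ctrl libraries 2 and 3 the order was the same, with Jun at 445 and 450.2 FPKM, Junb at 234 and 233, Fos at 131 and 125, and Jund at 74.2 and 78.0. In Ctrl library 1 Jun, at 41.0 FPKM, came below Junb (232), Fos (129) and Jund (76.0). Every other member was below 1 FPKM in every library. Fosl2 was at 0.423 to 0.465 FPKM in Ctrl and 0.658 to 0.736 in l-FA, Fosb at 0.226 to 0.243 and 0.294 to 0.342, Atf3 at 0.191 to 0.344 and 0.340 to 0.479, and Maff at 0.0574 to 0.0761 and 0.0454 to 0.217. Atf3 and Fosb overlapped in both groups, so their order is not set by FPKM.

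The lengths behind these values were not always those of the gene: the length that count and FPKM imply for Fosb, 16525 bases, is 2.25 times the listed span of the gene, and for Fos it is 3792 bases against a span of 3384. For Jun, Junb and Jund it matched the exon union of GENCODE M21 within 1 base, whereas the exon union of Fos was 2352 bases. With CPM per kilobase of that exon union in place of FPKM, Fos (378 to 383 in l-FA) and Junb (379 to 389) overlapped in l-FA and Fosb came above Fosl2 in Ctrl, at 0.618 to 0.659 against 0.522 to 0.570. On that scale Fosb also came above Atf3 in both groups. Atf3 was at 0.233 to 0.423 in Ctrl and 0.395 to 0.553 in l-FA, and Fosb was at 0.759 to 0.877 in l-FA. The order of Jun, Junb and Jund was unaffected.

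The make-up of the AP-1 pool, as FPKM summed over the 7 Fos and Jun family genes, differed in size and in Jund. The sum was 478, 884 and 887 FPKM in Ctrl and 1517, 1538 and 1502 FPKM in l-FA. The low sum is that of Ctrl library 1, in which Jun made up 8.57% of the pool against 50.3% and 50.8% in the other two Ctrl libraries and 56.4%, 56.5% and 55.9% in l-FA. Jund made up 15.9%, 8.39% and 8.80% of the pool in Ctrl and 1.77%, 1.70% and 1.85% in l-FA. Fos made up 15.8% to 16.0% of the pool in l-FA, but 23.2% to 23.5% in CPM per kilobase of exon union. Set against Junb alone, which leaves Jun out, the share of Jund in the sum of Junb and Jund was 24.7%, 24.1% and 25.1% in Ctrl and 6.44%, 6.16% and 6.58% in l-FA. The means of 24.6% ± 0.521 and 6.39% ± 0.212 (SD, n = 3) did not overlap, and an exact two-sided permutation test of 3 libraries against 3 cannot give a p below 0.1, so none is quoted for these shares.

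**Figure D3:**
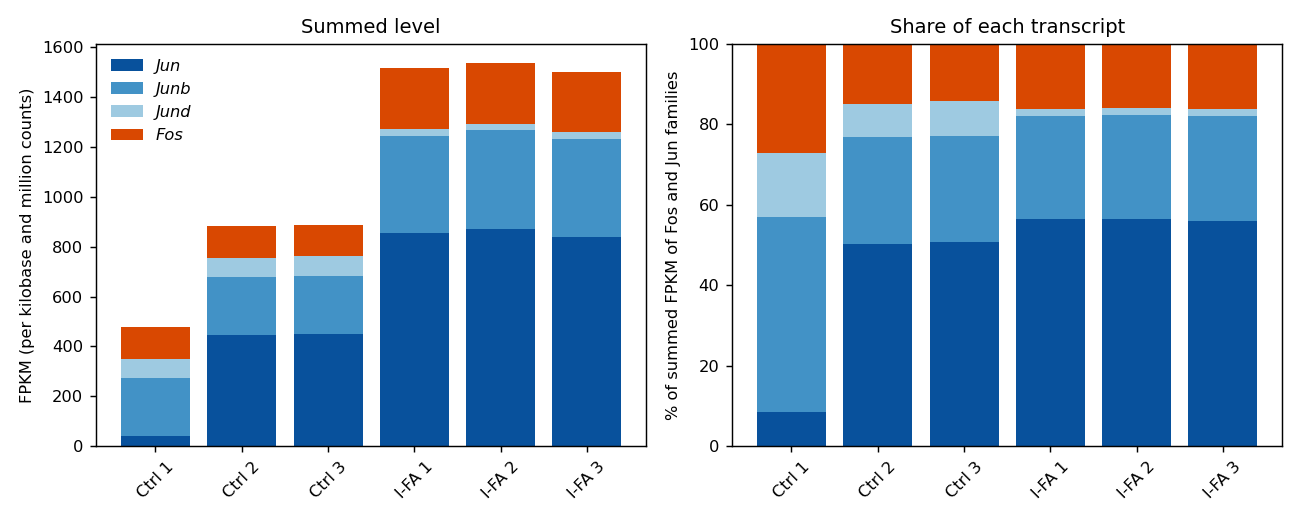
FPKM summed over Jun, Junb, Jund and Fos (left, vertical axis in FPKM from 0) and the percentage of each in the sum of the Fos and Jun families (right) for each library; Fosb, Fosl1 and Fosl2 together are too small to see. The 3 l-FA columns reach 1502 to 1538 FPKM and hold 1.70% to 1.85% Jund, and Ctrl library 1 differs from the other Ctrl libraries in its Jun segment.

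The ratio of Fos family to Jun family FPKM was 0.370, 0.174 and 0.165 in Ctrl and 0.192, 0.189 and 0.191 in l-FA. The groups overlapped, and the Ctrl mean of 0.237 ± 0.116 (SD, n = 3) rests on Ctrl library 1, without which it was 0.170. Leaving Jun out of the ratio removed the spread, with 0.419, 0.426 and 0.405 in Ctrl and 0.586, 0.575 and 0.572 in l-FA. These values did not overlap, at 0.417 ± 0.0109 and 0.578 ± 0.00717 (SD, n = 3). Jund, in the denominator of this ratio, was 2.99-fold lower in l-FA in CPM, while Fos and Junb were 1.79-fold and 1.60-fold higher.

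The genes nearest to Fos in pattern had tight groups too, which follows from choosing them by nearness to Fos. The 5 nearest of all genes tested were Nr4a1 (0.0250), Birc2 (0.0273), Igkv10-94 (0.0292), Tgtp2 (0.0299) and Ighv1-59 (0.0307), by the same root mean square difference. Nr4a1, an immediate early gene for an orphan nuclear receptor, had 1171, 1153 and 1223 counts in Ctrl and 2339, 2252 and 2254 in l-FA (log2 fold change 0.87, SE 0.029, edgeR adjusted p = 6.88e-06). Birc2, which encodes an inhibitor of apoptosis, and Tgtp2, which encodes an interferon-inducible GTPase, had log2 fold changes of 0.83 and 0.80. The 2 immunoglobulin segments were at 0 in Ctrl and at 16 to 18 counts in l-FA, and their nearness to Fos belongs to this scale, in which 1 is added to each CPM.

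Of 19 tested genes of the AP-1, ATF, MAF and BATF families outside the 8, 5 were higher, 3 were lower and none passed the 2-fold limit, with a median log2 fold change of 0.09, beside 25.5% higher and 25.0% lower among all genes. Of 18 tested C/EBP, PAR, CREB3 and related bZIP genes, 5 were higher and 7 lower, with a median of 0.04. Those past 2-fold were Cebpe and Cebpa, which encode C/EBP factors of granulocyte maturation and commitment. Cebpe went from 18.2 ± 0.884 to 5.26 ± 0.346 CPM (log2 fold change -1.79, SE 0.086, edgeR adjusted p = 2.49e-05) and Cebpa from 10.5 ± 0.293 to 4.04 ± 1.16 CPM (-1.37, SE 0.19, edgeR adjusted p = 0.00132; SD, n = 3 for both). They fell beside most, but not all, of the neutrophil and monocyte markers given above, and the part of those markers in the difference was not tested.

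Of 32 other immediate early genes tested, 20 were higher and 5 lower in l-FA, where 25.5% and 25.0% of all genes were, with a median log2 fold change of 0.55. Egr1, a zinc finger factor induced through the same MAP kinase route as Fos, was at 417, 410.2 and 414 CPM in Ctrl and 882, 906 and 912 CPM in l-FA (log2 fold change 1.12, SE 0.020, edgeR adjusted p = 1.04e-06). Zfp36, which encodes tristetraprolin, a protein that speeds the decay of AU-rich transcripts, rose from 503 ± 14.2 to 1018 ± 3.99 CPM (1.02, SE 0.024, edgeR adjusted p = 2.12e-06; SD, n = 3). Klf4 rose by 1.53 on the log2 scale (SE 0.24, edgeR adjusted p = 0.00208), from 32, 20 and 17 counts in Ctrl to 74, 70 and 67 in l-FA. Klf2, a related factor, fell by 1.03 (SE 0.10, edgeR adjusted p = 0.000346).

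Heat shock genes are also known to rise in tissue dissociation. Of 12 tested, 8 were lower and 2 higher in l-FA, beside the same shares of all genes, with a median log2 fold change of -0.34, and their summed level was 5362 to 5480 CPM in Ctrl and 3992 to 4223 in l-FA. Hsp90ab1 (2653 CPM in Ctrl, 2054 in l-FA) and Hspa8 (1026 and 821) carried most of this sum. The 2 higher were Dnajb1 (log2 fold change 0.44) and Dnajb4 (0.35). Hspa1a (0.72), with 8 to 31 counts per library, did not pass, and Hspa1b was lower (-0.63, SE 0.17, edgeR adjusted p = 0.0193). These genes were named after their values were seen. The bearing of the list on dissociation was not tested.

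Of 27 tested genes for the MAP kinases, their activators, SRF and ELK factors upstream of AP-1, 5 were higher and 6 lower, none of them past 2-fold, with a median log2 fold change of 0.05. These counts are not above the 25.5% and 25.0% of all genes. Of 17 genes for AP-1 cofactors and for proteins that degrade Fos or Jun or their transcripts, 4 were higher and 7 lower, with a median of -0.17. Besides Zfp36, the gene past 2-fold was Elavl1, which encodes HuR, a protein that stabilizes AU-rich transcripts, at 363 ± 7.11 CPM in Ctrl and 179.9 ± 6.21 CPM in l-FA (log2 fold change -1.01, SE 0.033, edgeR adjusted p = 5.78e-06; SD, n = 3).

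Of 21 tested genes known as AP-1 targets in other cells, 6 were higher and 6 lower, with a median log2 fold change of -0.01, which is near the shares of all genes (25.5% and 25.0%) at that threshold. Past the 2-fold limit as well were 2 higher and 4 lower genes, beside 6.68% and 5.10% of all genes. The lower ones include Il6 and Mt2, which fall outside the naming rule at under 1 CPM on average. Itgax, which encodes the integrin chain CD11c, rose from 2.83 to 12.0 CPM (log2 fold change 2.09, SE 0.14, edgeR adjusted p = 7.21e-05), and Cxcl2, a neutrophil chemokine gene, had 19, 21 and 23 counts in Ctrl and 52, 34 and 48 in l-FA (edgeR adjusted p = 0.00639). Fgf2, which encodes a fibroblast growth factor, had 77, 79 and 88 counts in Ctrl and 7, 6 and 7 in l-FA (-3.66, SE 0.16, edgeR adjusted p = 1.74e-05). Mt1, a metallothionein gene, fell from 20.3 to 6.14 CPM (-1.72, SE 0.097, edgeR adjusted p = 4.11e-05).

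**Figure D4:**
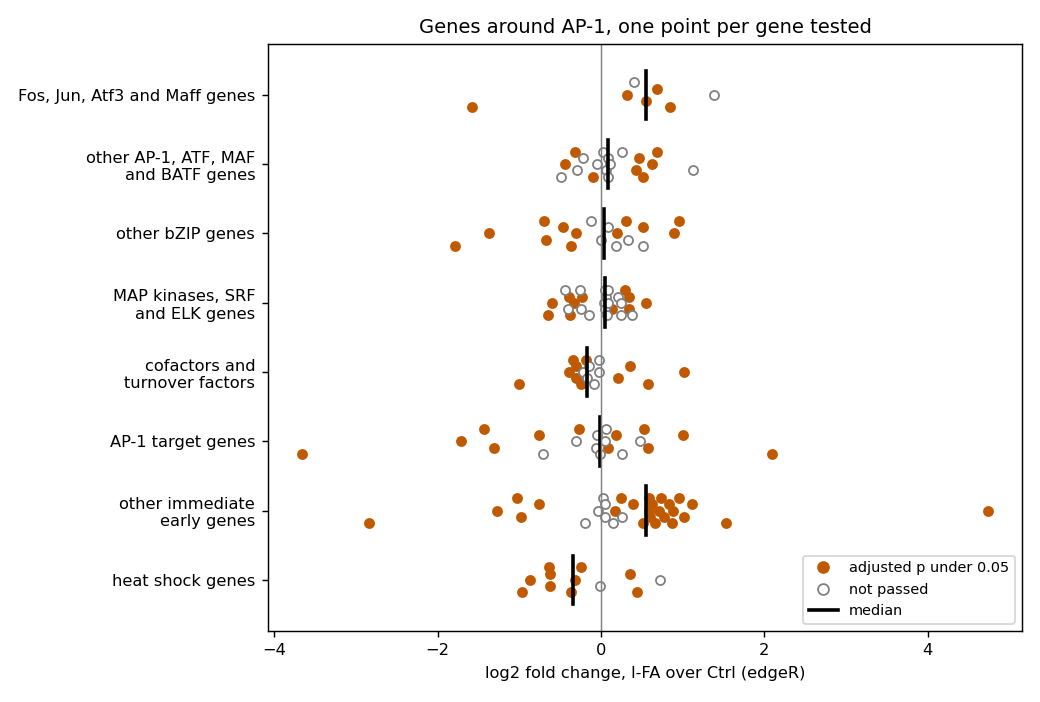
Log2 fold change of l-FA over Ctrl (horizontal axis) for each tested gene of the lists described (rows), filled where the edgeR adjusted p was under 0.05, with a bar at the median of each list. The medians of the Fos, Jun, Atf3 and Maff genes and of the other immediate early genes both lie at 0.55, and that of the heat shock genes at -0.34; the outermost points of the immediate early genes, Egr3 at 4.74 and Egr2 at -2.84, are genes under 1 CPM on average, named for their place in the plot.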

How the data were processed

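RNA of sorted HSCs was amplified as cDNA and sequenced in 3 Ctrl and 3 l-FA libraries, grouped by their labels. For every gene the authors deposited raw whole-number counts, and FPKM values in which these are divided by a gene length and by the library total. The implied length of a gene agreed between libraries within a relative deviation of 7.8e-04, and exceeded the listed span for 1818 of 27198 genes. The submitters' processing notes name HISAT2, SAMtools 1.3.1, StringTie, edgeR and build GRCm39, without roles. The gene annotation is not given in the sources used here, and gene coordinates are given as listed.

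edgeR 4.0.16 under R 4.3.3 was used for all tests (TMM scaling, filterByExpr, then glmQLFit and glmQLFTest), and p-values were adjusted by Benjamini-Hochberg over the 16520 genes that passed the filter. The code was tested on simulated data. The alternatives were RLE and upper-quartile scaling, DESeq2 1.42.0, no filter, at least 10 counts in every library, robust dispersions, the replicate number as a block, a test against a 1.2-fold change, and each library left out. Added after seeing the data were a median without Jun and levels per kilobase of the GENCODE M21 exon union. Promoters were taken from RefSeq on GRCm38.p6. Counting error covers only part of the error of amplified cDNA.

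The members and gene lists were chosen with earlier results of these data known. Named were all 8 members with every gene overlapping them, the 5 genes most like Jun and Fos (1 of them is not reported here), Elane and Mpo, and from other lists up to 4 genes per direction past an adjusted p of 0.05 and 2-fold with a mean of at least 1 CPM. Genes outside this rule are said to be so.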

Additional observations from a re-analysis of the deposited data

How the results depend on the processing

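Fos, Fosl2, Junb and Jund kept their direction and passed in all 14 alternative fits, Atf3 passed in none (adjusted p 0.23 to 0.665), and no member changed sign in any of them. Jun passed only without Ctrl library 1, the library that the value of Jun set apart. Fosb passed in 3 of 14, and the number of members called higher was 3 or 4. The number of genes past the adjusted p and 2-fold was 1946, against 3335 with no filter and 930 where each library needed 10 counts or more, settings that change the genes tested. The number past the adjusted p was 8336, against 4516 when tested against a 1.2-fold change. The members' median log2 fold change of 0.55 was 0.61 with no filter, which adds Maff, 0.48 without Jun, and 0.51 to 0.59 with each library left out. The Fos to Jun family ratio of 0.237 in Ctrl and 0.191 in l-FA was 0.417 and 0.578 without Jun, 0.367 and 0.253 on counts, and 0.382 and 0.307 per kilobase of exon union, and 0.170 to 0.272 in Ctrl and 0.190 to 0.192 in l-FA with each library left out. With the replicate number as a block, 7405 genes passed the adjusted p, Fosb had an adjusted p of 0.0924, and Jun a log2 fold change of 1.88 (adjusted p = 0.137). The correlations of same-numbered libraries were 0.00393, -0.0106 and -0.0783, so the numbers gave no evidence of pairing. Depth limits Maff, Atf3 and Fosb, with at most 115 counts in a library.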

Other observations

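A library standing apart from its group was also seen in other bZIP genes, among them Nfe2 and Atf1, which were chosen after their values were seen. Nfe2 encodes a subunit of NF-E2, a factor of megakaryocyte and erythroid genes that pairs with small Maf proteins such as MafF. It was at 118, 153 and 107 CPM in Ctrl and at 347, 362 and 118 CPM in l-FA, so l-FA library 3 lay among the Ctrl libraries while the other two lay above them. Its log2 fold change of 1.13 did not pass the edgeR test across all 6 libraries. Atf1, which encodes a CREB family factor, had 1278, 450 and 1276 counts in l-FA, so that l-FA library 2 lay below the rest. Among the AP-1 target genes, Ets1, also chosen after its values were seen, had 1325 and 1304 counts in l-FA libraries 1 and 2, 302 in l-FA library 3, and 835 to 926 in Ctrl.

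The remaining marker lists are given as counts at an adjusted p under 0.05 (edgeR), where 25.5% of all genes were higher and 25.0% lower in l-FA. Of 9 erythroid markers tested 3 were higher and 1 lower, of 4 B cell markers 1 was higher and none lower, of 3 T and NK cell markers 1 was higher and 2 were lower, and of 5 stromal and endothelial markers 2 were higher and 1 lower. Past 2-fold with a mean of at least 1 CPM were Gp9 among the megakaryocyte markers (log2 fold change 1.41), Cd4 (1.76) and Klrb1c (-1.54) among the T and NK cell markers, and Vcam1 (-1.12) among the stromal and endothelial markers. Of 10 genes with activity in every cell, 1 was higher and 5 were lower, with a median log2 fold change of -0.16.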
